A study of Bos taurus with 12 samples.

Results

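TWIST1, TWIST2, SNAI1, SNAI2, ZEB1, ZEB2 and PRRX1 are 7 genes that code for DNA-binding proteins best known as repressors and as factors of mesenchymal cells. They were taken by name. Every row of the gene expression table with 1 of the 7 gene names was used, and every m6A peak annotated to that gene. The names matched 8 of the 18436 rows, because ZEB2 stood in the table as a pair of gene models. They also matched 14 of 19739 peaks in proliferating myoblasts and 12 of 20790 peaks in myotubes.

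TWIST1 and TWIST2 are basic helix-loop-helix proteins that pair with E-proteins on E-box sites, and TWIST1 is known to hold back muscle differentiation by interfering with MYOD1 and MEF2 proteins. SNAI1 and SNAI2 are zinc finger proteins that repress CDH1 and other epithelial genes through related sites, and ZEB1 and ZEB2 combine zinc finger clusters with a homeodomain and recruit CtBP corepressors. PRRX1 is a paired-related homeobox protein of limb and connective tissue mesenchyme. N6-methyladenosine (m6A) is a methyl mark on adenosines inside mRNA that reader proteins bind, and it is often densest near stop codons and in 3′ UTRs.

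The cells were primary myoblasts of newborn Qinchuan cattle, taken from the longissimus dorsi back muscle and not genetically changed. The GM group were myoblasts at 80% confluence in growth medium with fetal bovine serum, and the DM group were myotubes at 100% confluence after 4 days in differentiation medium with horse serum. Medium, time and density thus differ together between GM and DM and cannot be told apart. There were 3 cultures of each kind, and RNA of every culture was sequenced untreated (input) and after immunoprecipitation (IP) with an m6A antibody, which makes 12 samples. The study's methods name a single newborn animal as the source, so p-values measure the spread between cultures and not between animals. Levels are FPKM, fragments scaled to exon length and to the mapped fragments of the library, from the 6 input libraries. The read depth behind a value is not known from FPKM. FPKM summed over all rows to between 415740 and 434458 in GM and between 386436 and 390827 in DM, and this difference enters the scaling checks given beside the results. In bulk RNA, fewer cells of a type and less RNA per cell cannot be told apart.

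TWIST1 is the member for which the study designed primers, and these are the only sequences of a member shown here, since they mark the transcript that the study measured by PCR. The pair for RT-qPCR and the pair for m6A-IP-qPCR were identical in sequence, so both assays amplified the same fragment. Its place in the genome was not determined here. Each primer is written 5′ to 3′ and is 21 bases long.
qTWIST1-F and TWIST1-m6A-F: ctaccaggtcctacagagcga
qTWIST1-R and TWIST1-m6A-R: ctccatcctccagaccgagaa

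From GM to DM, 4 of the 8 gene models fell, 1 rose and 3 did not pass the test. TWIST1 and SNAI1 fell most, SNAI2 and PRRX1 fell less, and ZEB1 rose slightly. A gene was called where limma's moderated test on log2(FPKM + 1) gave a Benjamini-Hochberg adjusted p under 0.05 over the 12302 rows with a mean of at least 0.5 FPKM. All 8 rows passed that filter. Over all tested rows, 26.7% were called lower in DM and 16.1% higher. The 4 falls and 1 rise among 8 rows are read against those shares, and 8 rows are too few to set the members apart from other genes. TWIST1, SNAI1 and SNAI2 also fell by over 1.5-fold, as did 6.88% of all tested rows, and none rose by over 1.5-fold, against 4.89% of all rows.

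**Figure D1:**
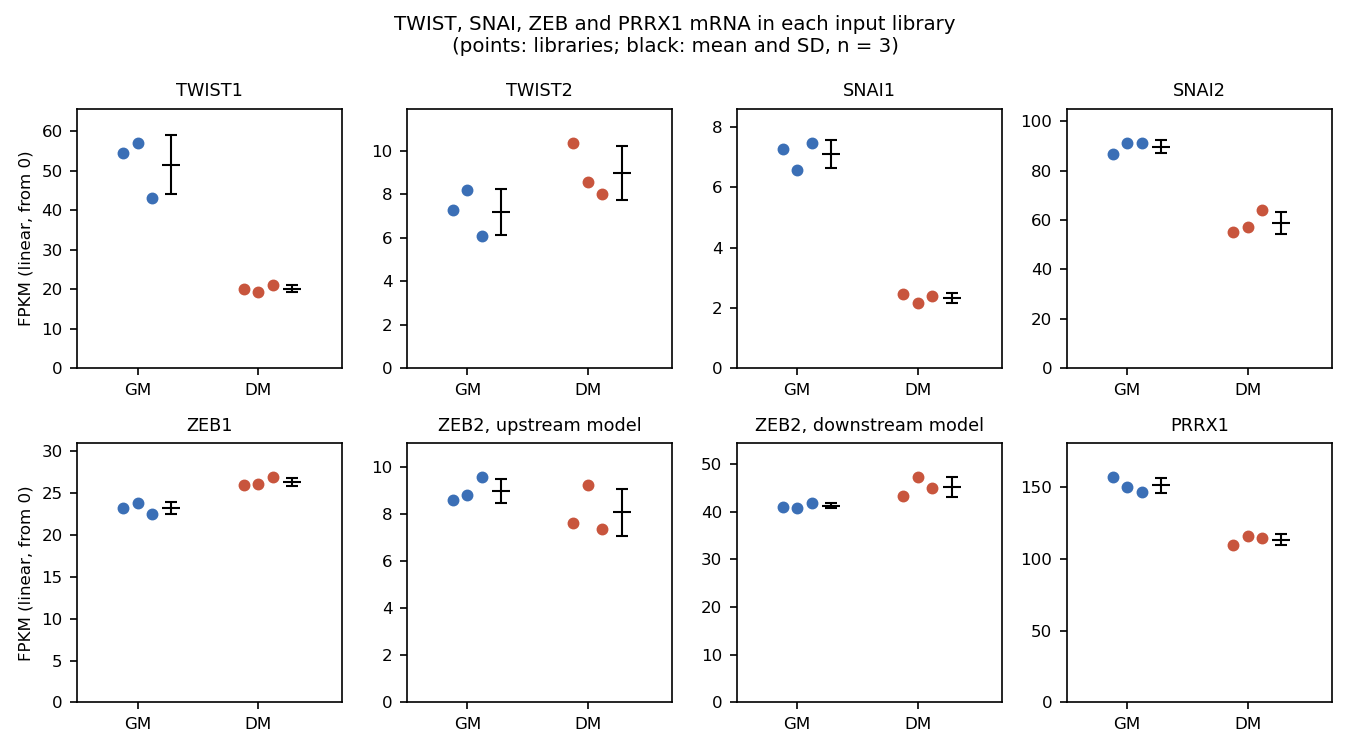
Each panel shows 1 gene model, with FPKM on a linear axis from 0 and a point for each of the 3 GM (blue) and 3 DM (red) input libraries, and black marks give the mean and SD. The GM points of TWIST1, SNAI1, SNAI2 and PRRX1 all lie above the DM points, those of ZEB1 and of the downstream ZEB2 model all lie below, and those of TWIST2 and of the upstream ZEB2 model overlap.

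TWIST1 lies on chromosome 4 (ENSBTAG00000046922, chr4:27817880-27819874, minus strand, build ARS-UCD1.2). Its level was 54.5, 57.1 and 43.1 FPKM in the GM libraries and 20.1, 19.4 and 21.0 FPKM in the DM libraries. The third GM library was the lowest of its group, and it was still above every DM library. The mean fell from 51.6 ± 7.47 to 20.1 ± 0.801 FPKM (SD, n = 3 each), 2.56-fold lower in DM. The fitted log2 change was -1.30 with a standard error of 0.10 (limma, adjusted p = 2.5e-05).

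TWIST2 (ENSBTAG00000021444, chr3:118051375-118103633, plus strand), the paralog known from dermis and connective tissue, stood at a much lower level. It measured 7.27, 8.22 and 6.10 FPKM in GM and 10.4, 8.58 and 8.02 FPKM in DM. The groups overlapped, since the highest GM library exceeded the lowest DM library. The log2 change was 0.29 with a standard error of 0.12 and did not pass (limma, adjusted p = 0.081). It passed after rescaling to TPM (0.43, limma adjusted p = 0.038), with size factors (0.34, limma adjusted p = 0.039) and without the second GM library (0.38, limma adjusted p = 0.040).

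SNAI1 (ENSBTAG00000014554, chr13:78036327-78042585, plus strand), whose short-lived protein represses CDH1, was the lowest member in DM. Its level was 7.26, 6.59 and 7.48 FPKM in GM and 2.46, 2.15 and 2.38 FPKM in DM. Every GM library was far above every DM library. The mean fell from 7.11 ± 0.466 to 2.33 ± 0.162 FPKM (SD, n = 3 each), 3.05-fold lower in DM and the widest ratio of means among the members. The log2 change was -1.28 with a standard error of 0.07 (limma, adjusted p = 4.6e-06).

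SNAI2 (ENSBTAG00000013227, chr14:19941415-19945016, minus strand), also called Slug, was far more abundant than SNAI1. It measured 86.7, 91.1 and 91.4 FPKM in GM and 55.3, 57.2 and 64.0 FPKM in DM, with no overlap. The mean fell from 89.7 ± 2.64 to 58.8 ± 4.56 FPKM (SD, n = 3 each), 1.52-fold lower. The log2 change was -0.60 with a standard error of 0.06 (limma, adjusted p = 0.00014). Rescaling to TPM and size factors gave -0.48 and -0.54, both still called and both under the 1.5-fold line.

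PRRX1 (ENSBTAG00000004570, chr16:38201016-38286243, plus strand) was the most abundant member in both groups. Its level was 157, 150.5 and 147 FPKM in GM and 109, 116 and 115 FPKM in DM, again with all GM libraries above all DM libraries. The mean fell from 151 ± 5.29 to 114 ± 3.62 FPKM (SD, n = 3 each), 1.33-fold lower. The log2 change was -0.41 with a standard error of 0.05 (limma, adjusted p = 0.00032).

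ZEB1 (ENSBTAG00000020053, chr13:33771235-33968002, minus strand) was the member that rose. It measured 23.2, 23.8 and 22.5 FPKM in GM and 26.0, 26.1 and 26.9 FPKM in DM, so that the groups did not overlap although they lay close together. The mean rose 1.13-fold, from 23.2 ± 0.665 to 26.3 ± 0.508 FPKM (SD, n = 3 each). The log2 change was 0.18 with a standard error of 0.05 (limma, adjusted p = 0.020). The call was lost without the first GM library (limma adjusted p = 0.059), without the first DM library (0.059) and without the third DM library (0.074).

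ZEB2 stood in the table as a pair of Ensembl models on the plus strand of chromosome 2, separated by 3786 bases, while RefSeq names 1 ZEB2 gene. The downstream model (ENSBTAG00000012615, chr2:52268261-52305498) measured 41.1, 40.8 and 41.9 FPKM in GM and 43.3, 47.3 and 45.0 FPKM in DM. All DM libraries were above all GM libraries, yet the log2 change of 0.13 with a standard error of 0.05 did not pass (limma, adjusted p = 0.073). It passed after rescaling to TPM (0.25, limma adjusted p = 0.0050) and with size factors (0.19, limma adjusted p = 0.024).

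The upstream ZEB2 model (ENSBTAG00000048810, chr2:52174189-52264474) was much lower. It measured 8.60, 8.80 and 9.58 FPKM in GM and 7.63, 9.23 and 7.36 FPKM in DM, and the second DM library lay among the GM libraries. The log2 change was -0.14 with a standard error of 0.09 (limma, adjusted p = 0.22), and without the second DM library it was -0.23 and passed (limma, adjusted p = 0.037). The downstream model exceeded the upstream model 4.78-, 4.64- and 4.37-fold in GM and 5.68-, 5.12- and 6.11-fold in DM. Fragments that belong to 1 ZEB2 transcript may be split between the models, so neither value is the level of the whole gene.

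In all, 4 members lay entirely higher in GM (TWIST1, SNAI1, SNAI2 and PRRX1), as did 33% of all tested rows, and ZEB1 and the downstream ZEB2 model lay entirely higher in DM, as did 21.1% of all tested rows. The scale of the table matters for the small changes. The median log2 change of all tested rows was -0.05 on deposited FPKM, 0.06 after rescaling each library to TPM and 0.00 with median-of-ratios size factors. The members called higher numbered 1 on deposited FPKM and 3 on each of the other scales, whereas the members called lower numbered 4 on all of them. Over all rows, the share of calls that were higher in DM was 37.6%, 59.2% and 49.0% on these scales. No member changed direction with the scale.

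**Figure D2:**
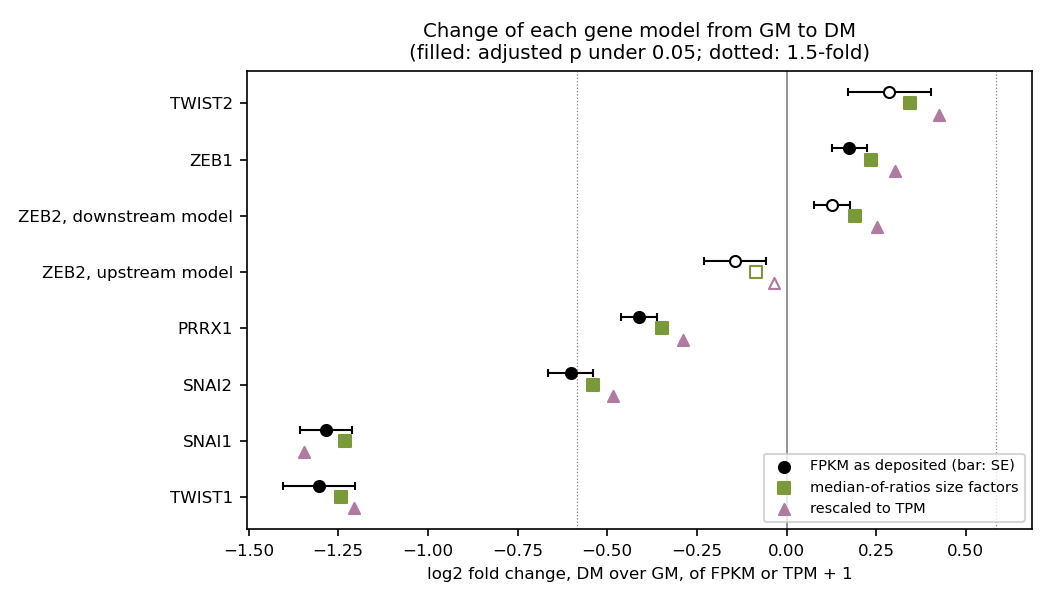
The horizontal axis is the log2 fold change of DM over GM for each gene model, on deposited FPKM (circles, with the standard error), after size factors (squares) and after rescaling to TPM (triangles), and filled symbols passed an adjusted p under 0.05. TWIST1 and SNAI1 lie far beyond the 1.5-fold line on every scale, while TWIST2 and the downstream ZEB2 model are open on deposited FPKM and filled on the other scales.

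FPKM is per length, so levels can be ordered between genes. In GM the order of mean level was PRRX1, SNAI2, TWIST1, the downstream ZEB2 model, ZEB1, the upstream ZEB2 model, TWIST2 and SNAI1. Neighbours in that order were separated in all libraries, with the exception of TWIST2 and SNAI1, whose libraries overlapped. In DM, TWIST1 stood below the downstream ZEB2 model and ZEB1, while PRRX1 and SNAI2 still led. The neighbours that overlapped in DM were TWIST2 and the upstream ZEB2 model. Among all tested rows, PRRX1 was above 96.9% in GM and 96.2% in DM, and SNAI1 was above 45.8% in GM and 21.1% in DM.

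In the TWIST and SNAI families 1 paralog was the more abundant. The balance in these families and in the ZEB family was compared between GM and DM. TWIST1 made up 88.2%, 87.4% and 87.6% of the summed TWIST1 and TWIST2 FPKM in the GM libraries and 65.9%, 69.3% and 72.4% in the DM libraries. The difference in log2(FPKM + 1) between TWIST1 and TWIST2 went from 2.68 ± 0.0582 to 1.09 ± 0.198 (SD, n = 3 each), a shift of -1.59. The libraries of GM and DM did not overlap in this difference, and an exact two-sided permutation test gave p = 0.1, the smallest that 3 against 3 allows, or 0.15 after Benjamini-Hochberg adjustment over the 3 pairs.

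SNAI2 made up 92.7% ± 0.528 of the summed SNAI1 and SNAI2 FPKM in GM and 96.2% ± 0.380 in DM (SD, n = 3 each). The difference in log2(FPKM + 1) between SNAI2 and SNAI1 went from 3.48 to 4.17, a shift of 0.68 (exact two-sided permutation p = 0.1, adjusted 0.15). With a pseudocount of 0.1 this shift was 0.96 and on TPM 0.86. For ZEB, the upstream ZEB2 model was left out, so the values are not those of the whole ZEB2 gene. In both groups the mean of ZEB1 lay below the downstream and above the upstream ZEB2 model. Which of ZEB1 and ZEB2 was the more abundant is therefore not known. The downstream ZEB2 model made up 64.0% ± 0.964 of the summed FPKM of this model and ZEB1 in GM and 63.2% ± 1.12 in DM. Its difference from ZEB1 shifted by -0.05 (exact two-sided permutation p = 0.5). A design of 3 against 3 cannot reach 0.05 by this test.

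The genes whose levels followed each member most closely over the 6 libraries were found by Pearson r of log2(FPKM + 1), given as a description, since GM and DM form separate clusters and many genes share that step. TWIST1 was followed by MSTN, which codes for myostatin, a secreted brake on muscle growth. MSTN fell from a mean of 1.28 to 0.146 FPKM, and its r was 1.00 after rounding. In all, 1362 tested genes had r over 0.95 with TWIST1, and 28 with TWIST2, whose closest genes were ARID4A and CBR4 (r = 0.99 each). SNAI1 was followed by AAAS and PLSCR2, SNAI2 by GOT1 and IRX3, and PRRX1 by HMGB1 and RCSD1. ZEB1 was followed by FRYL and NECTIN3, the downstream ZEB2 model by FAM168A and CMTM8, and the upstream model by MOSPD3 and NPRL3.

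All 8 gene models carried at least 1 m6A peak in both peak lists. Of the genes that averaged 5 FPKM or more, 70.2% had a peak in both lists, and 7 of the 8 models were at that level, all but SNAI1. The peak lists were called on the pooled libraries of each group. Each peak therefore has 1 fold enrichment of IP over input per group, with no replicate error and no test. ZEB1 was the most enriched member by far, SNAI2 and the upstream ZEB2 model were the least, and the others lay between.

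ZEB1 had a GM peak of 2576 exon bases in 4 blocks (chr13:33773092-33777816, minus strand), annotated to the 3′ UTR, with a fold enrichment of 22.4. The DM peak (chr13:33772972-33777846) held all of these bases, covered 2726 and had a fold enrichment of 29.7. The DM to GM ratio was 1.33, under the 1.5 that counts as a change here. By their highest peak, 98.3% of the GM list's genes and 99.1% of the DM list's genes lay below ZEB1. DM also had a small peak of 121 bases at the 3′ end of the gene, at 1.49-fold, that met no GM peak.

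The downstream ZEB2 model had 1 peak in each list, of 2415 exon bases in GM and 2475 in DM, starting in exon 5 of 7 and reaching the end of the model. The DM peak contained the whole GM peak. Fold enrichment was 5.65 in GM and 6.08 in DM, a ratio of 1.08. The upstream ZEB2 model had a weak peak annotated to its 3′ UTR, with 1.53-fold enrichment over 270 bases in GM and a ratio of DM to GM of 1.05. The DM peak there was longer, at 1257 bases. The end of that model lies before the gap to the downstream model, so its 3′ UTR may not be the end of a full ZEB2 transcript.

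TWIST1 had 1 peak in GM and 2 in DM. The GM peak began at the start of the gene and covered 1049 exon bases in 2 blocks (chr4:27818299-27819874), at 3.97-fold. In DM a peak of 211 bases at the start of the gene, annotated to the 5′ UTR, had 1.96-fold enrichment (chr4:27819664-27819874). A second DM peak of 1139 bases, annotated to the 3′ UTR, had 3.26-fold enrichment (chr4:27817940-27819605). In bases, the lists shared 991, which is 94.5% of the GM coverage and 73.4% of the DM coverage. With 1 peak facing 2, these peaks formed no pair of 1 to 1.

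TWIST2 showed the opposite layout, with 2 peaks in GM and 1 in DM, all annotated to the 3′ UTR. The GM peaks covered 444 and 474 exon bases at 2.74- and 4.94-fold. The DM peak covered 1242 bases at 6.55-fold and held every base of both GM peaks.

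PRRX1 had 3 peaks in GM and 1 in DM. The GM peaks, of 181, 1110 and 61 exon bases from the 5′ to the 3′ end, had fold enrichments of 2.02, 2.41 and 4.07. The single DM peak ran from the first to the last base of the gene model, covered 1799 exon bases in 6 blocks and had 4.90-fold enrichment. It contained all 1352 bases of the GM peaks. The lists annotate it to the 5′ UTR although it also covers the other exons, so a label names only a part of such a peak.

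SNAI1 had the most peaks, 4 in GM and 3 in DM. A 5′ UTR peak was present in both, with 5.57-fold enrichment over 416 bases in GM and 6.18-fold over 476 bases in DM, a ratio of 1.11. A 3′ UTR peak of 1040 bases at 3.64-fold in GM met a pair of DM peaks, of 714 bases at 2.94-fold and 238 bases at 3.73-fold. Weak GM peaks in exon 2 of 3, at 1.65- and 1.51-fold, met no DM peak. SNAI1 mRNA was 3.05-fold lower in DM, and its part in the peaks missing there was not tested.

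SNAI2 had a single weak peak in each list, annotated to exon 2 of 3 in GM (297 bases, 1.63-fold) and to exon 1 of 3 in DM (505 bases, 1.47-fold). The DM peak held the whole GM peak, and the ratio was 0.90. By its highest peak, 4.11% of the GM list's genes and 3.33% of the DM list's genes lay below it, although SNAI2 was the second most abundant member.

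**Figure D3:**
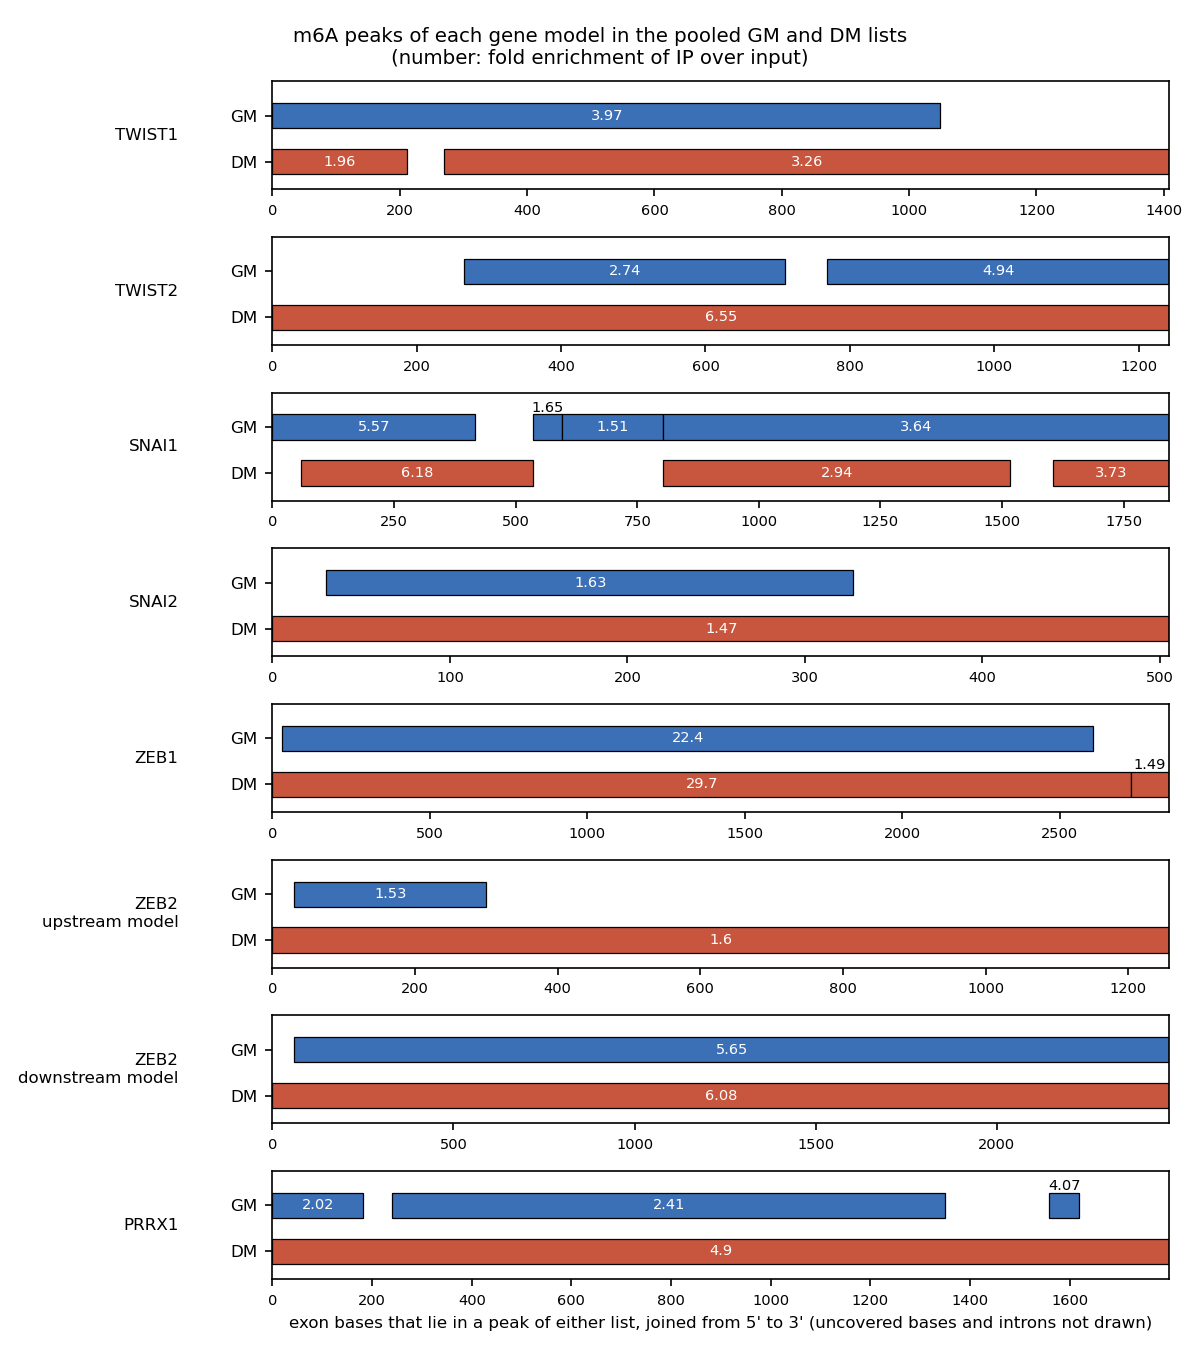
Each panel joins, from 5′ to 3′, the exon bases of 1 gene model that lie in a peak of either list, with GM peaks in blue above DM peaks in red and the fold enrichment of each peak printed on it; introns and uncovered bases are not drawn. Several GM peaks face 1 DM peak in TWIST2 and PRRX1, 1 GM peak faces 2 DM peaks in TWIST1, and ZEB1 carries the highest values, 22.4 and 29.7.

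Only 5 pairs consisted of exactly 1 GM and 1 DM peak of a member that shared at least 1 base. They were the 5′ UTR peak of SNAI1, the peaks of SNAI2 and ZEB1, and 1 for each ZEB2 model. Their DM to GM ratios ran from 0.90 to 1.33, and none passed 1.5 in either direction. Over all 10239 such pairs, 14.2% were higher in DM and 10.8% higher in GM by that rule, so 0 of 5 is not set apart from them. Taking the highest fold enrichment of each gene, a choice made after seeing the data, brings in TWIST1, TWIST2 and PRRX1 as well. These ratios ran from 0.82 for TWIST1 to 1.33 for TWIST2 over the 8 models, and again none passed 1.5, against 16.5% higher in DM and 11.8% higher in GM over 8434 genes. When pairs had to share 50% of each peak, 7 member pairs formed and 1 was over 1.5 times higher in DM, the 1110-base GM peak of PRRX1 at 2.41 and its DM peak at 4.90, a ratio of 2.03. Of all 9724 pairs formed in this way, 11.6% were over 1.5 times higher in DM.

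Enrichment is a ratio of IP to input and is set here beside the mRNA change, with no error on the former. TWIST1 lost mRNA by 2.56-fold while its highest enrichment went from 3.97 to 3.26. The 3.97 came from the GM peak that began at the gene start and the 3.26 from the DM peak annotated to the 3′ UTR. These peaks shared 780 bases, which is 74.4% of the GM peak and 68.5% of the DM peak. The DM peak of TWIST1 at the gene start had 1.96. For TWIST1 the study reports the other direction, with more m6A in DM by its m6A-seq and m6A-IP-qPCR. The study describes a peak near the start codon, seen in every replicate. The values here are enrichments of whole peaks in pooled lists, so the measures are not alike, and the difference was not tested. SNAI1 lost mRNA by 3.05-fold while its highest enrichment went from 5.57 to 6.18. PRRX1 lost mRNA by 1.33-fold while enrichment was 2.02, 2.41 and 4.07 in its GM peaks and 4.90 in the DM peak over all of them. The GM value of 4.07 comes from the 61-base peak, which is 3.39% of the DM peak, and the 1110-base GM peak is 61.7% of it.

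The genes that work with the repressors were taken in lists, and the counts below stand beside the 16.1% of all tested rows called higher and the 26.7% called lower. Among the helix-loop-helix partners of TWIST proteins, all 4 ID genes, whose products bind E-proteins and keep them from DNA, fell from GM to DM, and the 3 E-protein genes TCF3, TCF4 and TCF12 did not pass. The counts were 0 higher and 4 lower of 7, with a median log2 change of -0.47 beside -0.05 for all tested rows. The fall of ID4, from 4.92 to 3.27 FPKM, was not called on TPM (limma adjusted p = 0.056) or without the first DM library (limma adjusted p = 0.056). ID1 measured 15.3, 17.4 and 18.1 FPKM in GM and 0.998, 1.27 and 1.52 FPKM in DM, a log2 change of -2.99 with a standard error of 0.10 (limma, adjusted p = 3.7e-07). ID3 fell from a mean of 102 to 30.5 FPKM and ID2 from 45.6 to 16.7 FPKM. In each of the 4 ID genes all GM libraries lay above all DM libraries, as in 33% of all tested rows.

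Among the 10 related factors in the table, 5 had a mean of at least 0.5 FPKM, and 1 was higher and 2 lower, with a median log2 change of -0.04. SCX, the tendon factor scleraxis, rose 2.61-fold from 0.575 FPKM. PRRX2, the paralog of PRRX1, fell from 71.0 to 55.5 FPKM (limma, adjusted p = 0.017), and TCF21 fell from 2.15 to 1.68 FPKM (limma, adjusted p = 0.046). The falls of PRRX2 and TCF21 kept their direction but did not pass on TPM (limma adjusted p = 0.065 and 0.17). The lower genes numbered 0 without the third DM library and 1 without any of the others, and the higher genes 2 without the third GM library. SNAI3, the remaining Snail gene, was at most 0.0154 FPKM in any library.

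Of 17 corepressor, scaffold and degradation genes, 0 were higher and 5 lower, a share of lower genes near the 26.7% of all rows, with a median log2 change of -0.05, equal to that of all rows. CTBP2, a corepressor that ZEB proteins bind, fell from 8.69 to 6.22 FPKM, and AJUBA, a scaffold of SNAI proteins, fell from 15.9 to 11.8 FPKM. HDAC1, a histone deacetylase of several repressor complexes, fell from 46.9 to 35.9 FPKM, and HDAC2 and the demethylase gene KDM1A were the others. CTBP1, the paralog of CTBP2, had a log2 change of 0.03 with a standard error of 0.06.

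Of 17 signals and factors listed as inducers of members, 6 were higher and 2 lower, with a median log2 change of 0.14. The list also holds SMAD7, an inhibitory SMAD, which was among the 6 and rose from 4.10 to 6.06 FPKM. WWTR1, a coactivator of the Hippo pathway also called TAZ, rose from 30.0 to 53.9 FPKM. HIF1A, the oxygen-regulated factor, rose from 71.3 to 111 FPKM, and SMAD2, a receptor-activated SMAD, from 29.7 to 44.9 FPKM. HMGA2, a chromatin protein upstream of SNAI1 and TWIST1, fell from 2.80 to 0.538 FPKM, and TGFB3 fell from 12.0 to 6.71 FPKM. The count of higher genes was 11 on TPM and 11 with size factors.

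Of 32 epithelial genes known as targets of SNAI and ZEB repression, 26 were in the rows used and 7 reached a mean of 0.5 FPKM. Of these 7, 5 were higher and 0 lower, with a median log2 change of 0.24. CDH1, which codes for E-cadherin, measured 8.88, 8.95 and 8.74 FPKM in GM and 14.8, 17.0 and 14.6 FPKM in DM, a log2 change of 0.73 with a standard error of 0.07 (limma, adjusted p = 7.0e-05). MARVELD2, a tight junction gene, rose from 1.36 to 2.67 FPKM, and TJP1, a junction scaffold also present in mesenchymal cells, from 31.5 to 43.4 FPKM. The other 19 epithelial genes had means under 0.5 FPKM, among them EPCAM, KRT8 and CLDN3. All 5 genes that rose were above 0.5 FPKM in every library. Without the third GM library, the second DM library or the third DM library, the count was 3.

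Of 24 mesenchymal genes, 9 were higher and 7 lower, with a median log2 change of 0.05. FN1, the fibronectin gene, rose from 928 to 4498 FPKM, CDH11, a cadherin of mesenchymal cells, from 182 to 377 FPKM, and CCN2 from 813 to 1347 FPKM. POSTN, the periostin gene, fell from 273 to 132 FPKM, VIM, the vimentin gene, from 2758 to 1663 FPKM, and CCN1 from 383 to 238 FPKM. CCN1 did not pass on TPM (limma, adjusted p = 0.053).

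Of 17 muscle regulators and myotube genes, 8 were higher and 5 lower, with a median log2 change of 0.21. MEF2C, a myogenic MADS-box factor, rose from 7.79 to 70.1 FPKM, CKM, the muscle creatine kinase, from 10.2 to 42.5 FPKM, and MYH8 from 0.520 to 4.06 FPKM. MYF5, a myogenic factor of myoblasts, fell from 11.8 to 2.25 FPKM, ITGA7 from 21.7 to 5.16 FPKM and MYOD1 from 61.6 to 24.8 FPKM. MYOG was already at 197 FPKM in GM and reached 243 FPKM in DM.

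**Figure D4:**
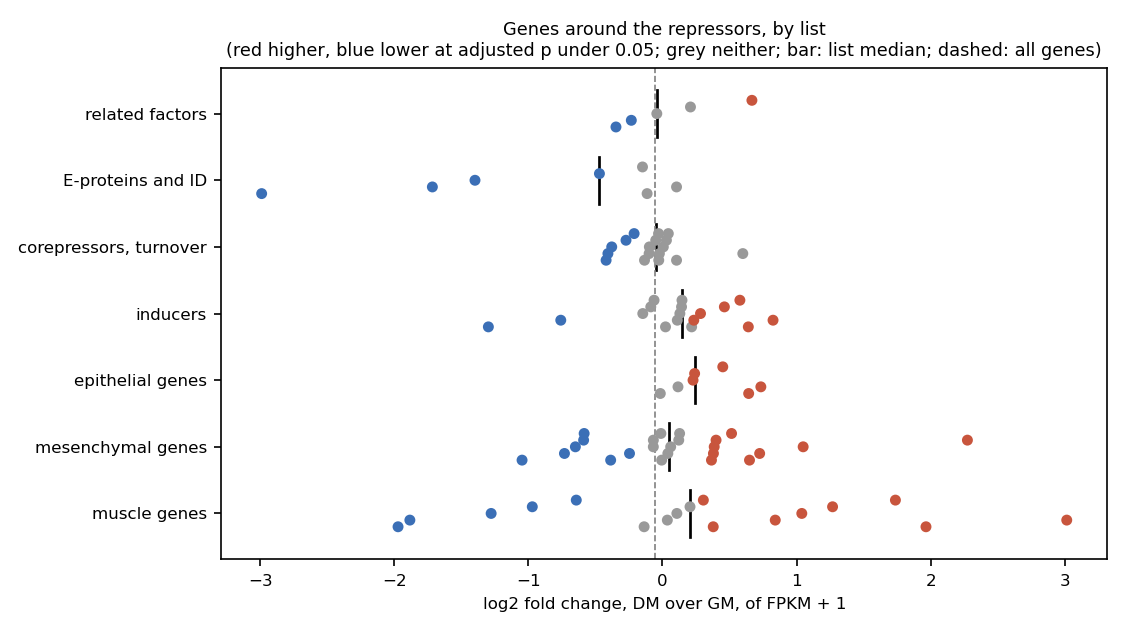
Each point is 1 tested gene of a list, placed by its log2 fold change of DM over GM, red where higher and blue where lower at an adjusted p under 0.05, with a black bar at the list's median and a dashed line at the median of all tested rows, -0.05. The ID genes extend to -2.99, the epithelial genes lie at or above -0.02, and the mesenchymal and muscle genes spread to both sides.

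The members are expressed in other mesenchymal cells too, so the markers of other cells stand beside the results. Fibroblast markers summed to between 16123 and 16282 FPKM in GM and between 17020 and 18112 FPKM in DM, most of it collagen, and 6 of 12 tested were higher and 1 lower. The part of fibroblasts in the levels of the members was not tested. All 8 myoblast and myotube markers passed the filter, and 3 of them were higher and 4 lower. Smooth muscle and pericyte markers summed to between 2031 and 2479 FPKM in GM and between 1626 and 1889 FPKM in DM, nearly all of it ACTA2, and of the 3 tested 1 was higher and 2 lower. Endothelial markers summed to at most 0.874 FPKM, leukocyte markers to at most 2.06 FPKM and adipocyte markers to at most 2.78 FPKM in any library.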

How the data were processed

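Input and m6A-IP libraries of 3 GM and 3 DM cultures were used. The authors trimmed reads with Trimmomatic (the submitters' processing notes name fastp and cutadapt), aligned them with HISAT2 to ARS-UCD1.2, and made the deposited FPKM per gene with StringTie for 18436 rows on the 29 autosomes. The deposited peak lists, 1 per group, came from exomePeak on pooled libraries after Sambamba kept unique, non-duplicate alignments, with ChIPseeker annotation. In them the authors give enrichment as a linear ratio of IP to input, with deposited p-values and log10 values beside it. Tool versions are not given in the sources used here.

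For their own comparison the authors ran edgeR on counts. Since the deposited values are FPKM, limma 3.58.1 in R 4.3.3 was run on log2(FPKM + 1), with a variance trend, on the 6 input libraries and rows with a mean of at least 0.5 FPKM. Fold changes on this scale understate changes of low genes. Peaks were paired by at least 1 shared exon base on the same strand with pandas 2.3.3 (Python 3.11.15). Permutations used scipy 1.17.1 and numpy 2.4.6, and plots matplotlib 3.10.9. Both steps were tested on simulated data. Named genes are the members, up to 3 called genes with the largest rise and fall per list, and the 2 genes most like each member (1 of these is not reported here), while the other E-protein, ID, corepressor, epithelial and muscle genes named were chosen after their values were seen. The members and lists were chosen with earlier results of these data known. Alternatives were the pseudocount, the filter, TPM, size factors, the trend, a replicate block, each library left out, stricter peak sets, overlap and centring. RefSeq served for gene names alone. IP libraries per sample and PCR values were not analysed here.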

Additional observations from a re-analysis of the deposited data

How the results depend on the processing

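The 4 falls of TWIST1, SNAI1, SNAI2 and PRRX1 were called under every alternative run, and no member changed direction. Members called higher numbered 3 on TPM and 3 with size factors, and between 0 and 2 with each library left out. Whether same-numbered GM and DM cultures form pairs is not stated. Deviations of same-numbered libraries correlated at -0.08, -0.12 and -0.21, and no library correlated best with its own number. With 3 libraries per group, these values cannot show that the cultures were unpaired. With the replicate block, 0 members were higher (ZEB1 at 0.18, limma adjusted p = 0.076) and 1 related factor was lower, no other member call changed, and calls over all rows went from 1980 higher and 3288 lower to 1650 and 2863. Related factors called higher numbered 2 on TPM and with size factors and 1 to 2 with libraries left out, and those called lower 0 on both scales, 1 without the filter and 0 to 1 with libraries left out. On TPM and with size factors alike, 1 E-protein or ID gene, 1 corepressor gene and 11 inducer genes were higher, and 3 corepressor genes and 3 ID genes were lower on TPM. Epithelial genes higher numbered 8 on TPM, 8 without the filter (with 1 lower) and 3 to 4 with libraries left out. The shift of SNAI2 minus SNAI1 was 0.96 with a pseudocount of 0.1 and 0.86 on TPM. When pairs had to share 50% of each peak, 1 of 7 member pairs was higher in DM, that of PRRX1. The cause was not tested in any of these cases. Read depth is not known from FPKM, and peaks carry no replicate error.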

Other observations

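The m6A peaks of the genes around the repressors were not described above. They are given by the highest fold enrichment of each gene in the pooled lists, which has no replicate error and can come from different places of a transcript in GM and DM. Over all 8434 genes, 16.5% were over 1.5 times higher in DM by this measure and 11.8% over 1.5 times higher in GM. Of 16 corepressor, scaffold and degradation genes with a peak in both lists, 2 were higher in DM and 4 in GM, with a median ratio of 1.03. EHMT2, which codes for a histone methyltransferase that SNAI proteins recruit, had a 3′ UTR peak of 511 bases in both lists, at 39.2-fold in GM and 6.39-fold in DM, while its mRNA had a log2 change of 0.01. An exon peak of EHMT2 was also in each list, of 360 bases at 4.21-fold in GM and 450 bases at 4.64-fold in DM. EHMT2 was named after its values were seen.

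Of 13 muscle genes with a peak in both lists, 0 were higher in DM and 5 in GM, with a median ratio of 0.95. Of 11 inducer genes, 2 were higher in DM, a share near that of all genes, and 0 in GM. Neither list was tested against other genes.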
